A study of Mus musculus with 18 samples.

Results

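The heat shock genes described here are 10 mouse genes for chaperones and their partners: *Hspa8*, *Hsph1*, *Dnajb1*, *Dnaja1*, *Hspb1*, *Hsp90aa1*, *Hsp90ab1*, *Hspd1*, *Hspe1* and *Bag3*. They were chosen by symbol, and every probe set whose platform annotation names only 1 of these symbols was taken, which gave 22 of 45037 probe sets. After dim probe sets had been left out, 19 of 27773 remained, and 8 of the 10 genes were measured among 12121 genes. *Hsp90ab1*, the constitutive cytosolic HSP90, has no probe set under its symbol in the annotation used, and both probe sets of *Hspb1*, a small heat shock protein, stayed between 5.0 and 5.3 on all arrays, below the lowest intensity kept (8.5).

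The series measured newly transcribed RNA of NIH-3T3 cells, an established mouse fibroblast line, on 18 Affymetrix arrays, and asked how type I and type II interferon (IFN) change transcription when no new protein can be made. Cells were treated for 1 h with IFNγ and CHX, IFNα and CHX, CHX without IFN, IFNγ, IFNα, or neither, the mock treatment, with 3 arrays each. Cycloheximide (CHX), an inhibitor of translation, or its solvent DMSO was added 15 min before IFN, which was given at 100 U/ml. In all 6 treatments 500 µM 4-thiouridine (4sU) was present from 30 to 60 min, so that RNA made in these 30 min could be purified by its tag. Each treatment had 3 replicates by its labels, which the study describes as biological, all of 1 cell line. The p-values measure the spread between these arrays.

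Chaperones of the HSP70 family bind unfolded stretches of proteins, J proteins such as *Dnajb1* and *Dnaja1* hand them their clients, and nucleotide exchange factors such as *Hsph1* and *Bag3* release them. HSP90 takes over part of the clients at a late step of folding, while *Hspd1* and *Hspe1* form the folding chamber and its lid in the mitochondrial matrix, so that these members are not cytosolic. Heat shock factor 1 (HSF1) drives many of these genes when unfolded proteins accumulate, by binding heat shock elements, which are inverted repeats of a GAA unit.

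With CHX the members moved in opposite directions. *Dnajb1* rose 3.13-fold (mean of the comparisons with IFNγ, with IFNα and without IFN), whereas *Hspd1*, *Hsph1*, *Hspe1* and *Hspa8* fell to 57.4%, 62.1%, 63.3% and 71.5% of the level without CHX. *Hsp90aa1* rose 1.17-fold, a call that was lost in 15 of 18 fits that left out 1 array, and no change passed the test for *Bag3* and for the brightest probe set of *Dnaja1*. No member passed the test in any comparison of IFN with no IFN in the model of the 6 treatments alone. Of all genes, 0.743% to 5.77% passed it in these comparisons. With the replicate number as a block, *Dnajb1* was lower with IFNγ and CHX against CHX (adjusted p = 0.00496 in limma).

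RefSeq promoter windows, from 250 bases before to 50 bases after an annotated start site (build GRCm38.p6), were given for 7 of the 10 members. They were searched on both strands for GAANNTTC and TTCNNGAA, the 2 ways in which a pair of inverted units can lie, and for 3 such units in a row, which overlap the pairs. A pair was present for 6 of these 7 members, against 17.0% of all 27025 genes with a window, and 3 units in a row for 3 members (*Hsph1*, *Hspd1* and *Hspe1*), against 0.662% of all genes. The units of *Hspd1* and *Hspe1* are the same bases read on opposite strands, and the first window of *Hspd1* held no pair. Of all 32851 windows, 7.86% held GAANNTTC, 8.52% held TTCNNGAA and 0.603% held 3 units in a row. Neither of the 2 windows of *Dnajb1*, which rose, held a pair, which says only that these letters are not in them. A pair was present for *Dnaja1* and *Bag3*, which are not among the genes that fell. The related gene *Hspa1b*, which rose with CHX, has GAANNTTC 104 bases before its start site. No window was given for *Hspa8*, which fell. Whether the elements bear on the direction of a change was not tested.

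The first window of *Dnajb1*, the member that rose most (chr8:83607925-83608224, plus strand), is shown beside those of *Hsph1* (chr5:149636287-149636586, minus strand) and *Hspe1* (chr1:55087898-55088197, plus strand), which fell, with the matched units in capitals.
Dnajb1: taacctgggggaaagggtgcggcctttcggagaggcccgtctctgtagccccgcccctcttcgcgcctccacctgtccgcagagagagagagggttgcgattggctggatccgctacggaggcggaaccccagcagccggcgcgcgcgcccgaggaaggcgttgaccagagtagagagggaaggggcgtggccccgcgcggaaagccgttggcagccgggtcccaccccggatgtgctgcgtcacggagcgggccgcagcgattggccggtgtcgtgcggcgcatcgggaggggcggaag
Hsph1: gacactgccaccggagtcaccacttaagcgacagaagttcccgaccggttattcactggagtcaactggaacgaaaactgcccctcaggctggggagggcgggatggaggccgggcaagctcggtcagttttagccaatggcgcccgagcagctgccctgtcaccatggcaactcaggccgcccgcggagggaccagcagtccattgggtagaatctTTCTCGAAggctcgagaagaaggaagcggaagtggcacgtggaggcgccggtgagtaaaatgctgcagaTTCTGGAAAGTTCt
Hspe1: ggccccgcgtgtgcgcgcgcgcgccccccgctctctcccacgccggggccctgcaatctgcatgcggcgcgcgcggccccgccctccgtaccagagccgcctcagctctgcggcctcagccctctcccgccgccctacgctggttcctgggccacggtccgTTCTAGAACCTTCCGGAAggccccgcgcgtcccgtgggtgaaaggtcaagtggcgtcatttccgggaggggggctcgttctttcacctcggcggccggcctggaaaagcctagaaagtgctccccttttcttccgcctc

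The block of units in the *Hspe1* window begins 89 bases before its start site and is also in the second window of *Hspd1*, on the other strand, where it begins 144 bases before the start site. The genes lie head to head on chromosome 1. Start sites of *Hspd1* are 95 and 216 bases from that of *Hspe1*, and the second window of *Hspd1* shares 285 bases with the window of *Hspe1*. In *Hsph1* a pair lies 33 bases before the first start site and 3 units in a row begin 37 bases after it. Single pairs begin 124 bases before the first start site of *Dnaja1* and 43 bases after that of *Bag3*, and *Hspb1*, which was not detected on these arrays, has pairs 117 and 97 bases before its start site.

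**Figure D1:**
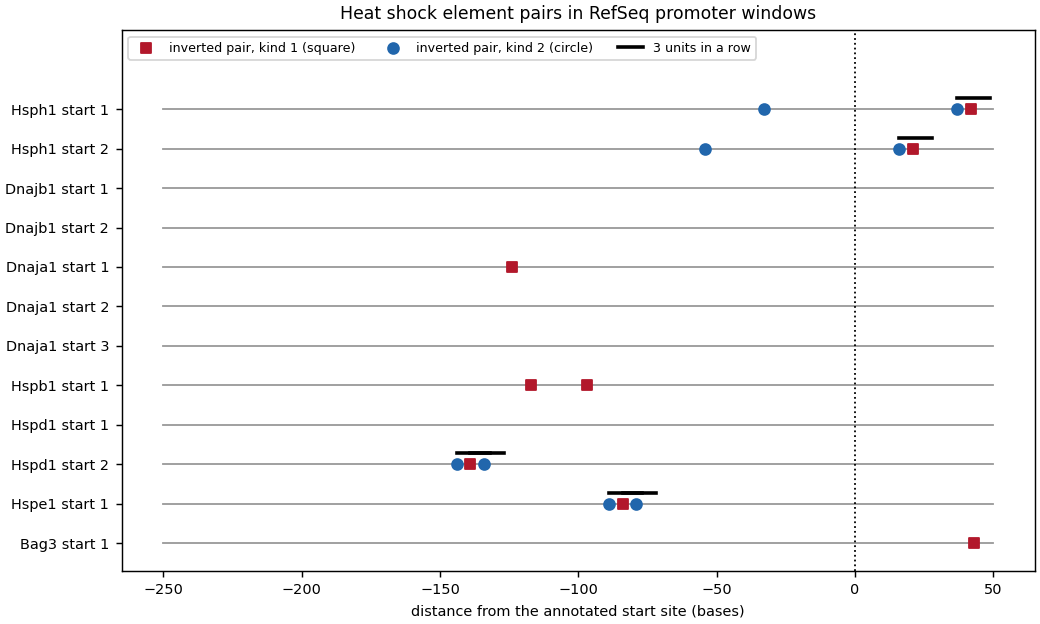
Heat shock element pairs in the RefSeq promoter windows of 7 members, 1 line per annotated start site, against the distance from that start site in bases. Squares are GAANNTTC, circles are TTCNNGAA and black bars are 3 units in a row, which are present in windows of *Hsph1*, *Hspd1* and *Hspe1*, while both windows of *Dnajb1* are empty.

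The question put to the members first was what CHX did to them. Of the 8 measured genes, 1 rose and 2 fell with CHX alone against mock at an adjusted p under 0.01 (limma, Benjamini-Hochberg over all probe sets kept), where 4.57% of all genes rose and 9.92% fell. With IFNα, 1 rose and 3 fell with CHX (all genes 6.88% and 8.42%), and with IFNγ, 1 rose and 2 fell (all genes 6.12% and 12.7%). In the mean of these 3 comparisons, which share no array, 2 rose and 4 fell (all genes 14% and 22.8%). The median log2 change of the 8 genes in this mean was -0.27, against 0 over all genes. None of the 4 falls in this mean reached 2-fold by the brightest probe sets. With CHX alone, the second probe set of *Hsph1* fell 2.47-fold (adjusted p = 0.0053 in limma), a call kept in 0 of 6 fits that left out 1 array. Intensities are relative to the RNA of each array, so that fewer cells and less RNA per cell cannot be told apart, nor can less synthesis and faster decay or altered processing within the labelling time.

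*Dnajb1* encodes the J protein known as HSP40, which presents clients to HSP70 and is itself strongly heat-induced. Its brightest probe set (1416755_at) gave intensities of 6651, 6296 and 5274 with IFNγ and CHX, against 2497, 1987 and 1960.3 with IFNγ. With IFNα and CHX the values were 8655, 8584 and 7813, against 3049, 2444 and 2171 with IFNα, and with CHX alone 9497, 7969 and 7083, against 2782, 2338 and 2328 in mock. Every array with CHX lay above every array without it. The log2 change with CHX was 1.50 ± 0.15 with IFNγ, 1.72 ± 0.15 with IFNα and 1.72 ± 0.15 without IFN (SE, adjusted p = 9.59e-06, 2.75e-06 and 3.78e-06 in limma), or 2.83-, 3.30- and 3.28-fold. The second probe set, 1416756_at, ranged from 1022 to 3002 with CHX, against 306.3 to 694.2 without it, and its mean log2 change was 1.81 ± 0.17 (SE, adjusted p = 1.07e-06), beside 1.65 ± 0.09 (adjusted p = 4e-09) for the first.

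**Figure D2:**
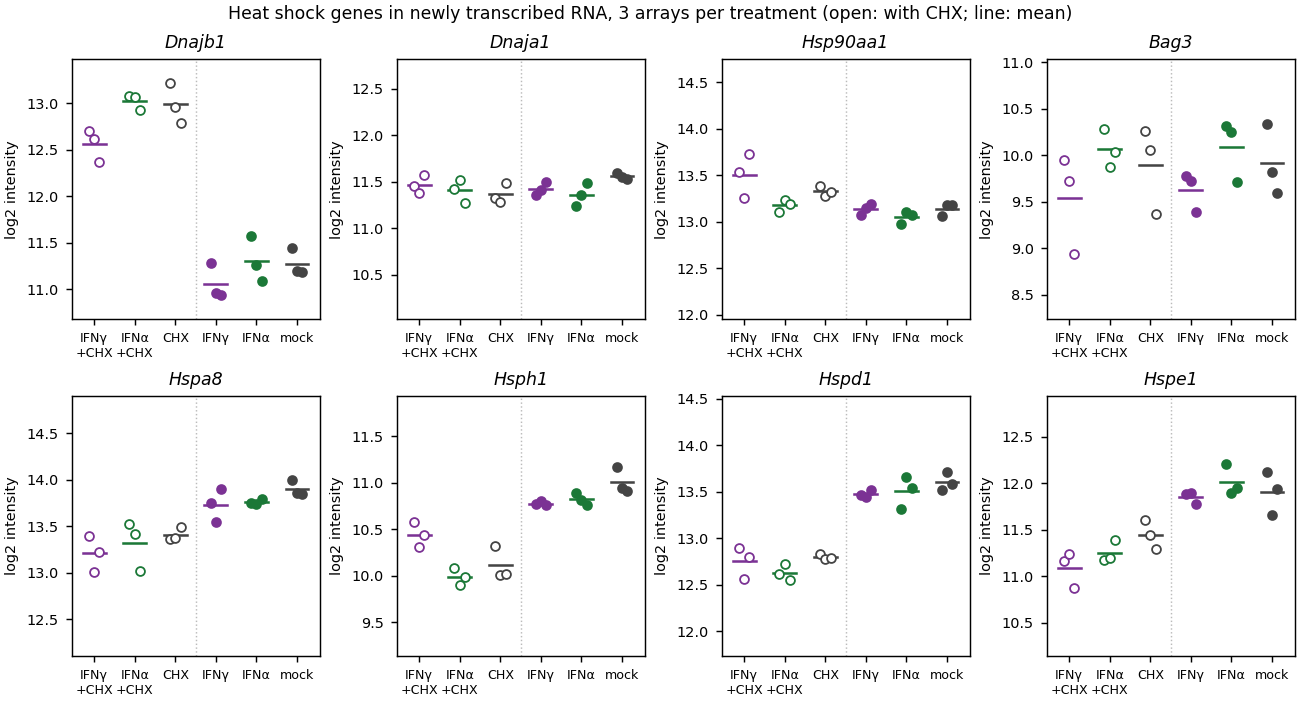
Log2 intensity of newly transcribed RNA for the 8 measured members, by the probe set that stands for each gene, with 3 arrays per treatment as points and their mean as a line (open points with CHX, filled points without). All panels span the same number of log2 units. By these probe sets *Dnajb1* is higher on every array with CHX, and *Hspd1*, *Hsph1*, *Hspe1* and *Hspa8* are lower. Other probe sets of *Hsph1*, *Hspe1* and *Hspa8* overlapped, and the share of all genes separated in this way was not counted.

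*Hspd1* encodes HSP60, the barrel of the mitochondrial chaperonin, and fell in all 3 comparisons. Its only probe set had 7621, 6028 and 7108 with IFNγ and CHX, against 11267, 11116 and 11715 with IFNγ. It had 6259.8, 6760.2 and 5994 with IFNα and CHX, against 10208, 12901 and 11894 with IFNα. CHX alone gave 7281, 7022 and 7082, against 11764, 13463 and 12251 in mock. The highest array with CHX was thus below the lowest without it, and the fall passed the test in each comparison. The log2 changes were -0.72 with IFNγ, -0.88 with IFNα and -0.81 without IFN (SE 0.11 each, adjusted p = 0.000207, 4.51e-05 and 0.000111 in limma), and their mean was -0.80 ± 0.06 (SE, adjusted p = 1.34e-07), a 1.74-fold fall.

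*Hspe1*, which encodes HSP10, the lid of that chaperonin, fell as well. With IFNγ and CHX its brighter probe set (1450668_s_at) had 2291, 2407 and 1876, against 3781, 3792 and 3494 with IFNγ. With IFNα and CHX it had 2304, 2339 and 2685, against 4730.4, 3804 and 3947 with IFNα, and with CHX alone 3104, 2774 and 2512, against 4439, 3225 and 3921 in mock. No array with CHX reached the level of any array without it. The log2 change was -0.76 ± 0.14 with IFNγ and -0.77 ± 0.14 with IFNα (SE, adjusted p = 0.00111 and 0.00117), while without IFN it was -0.46 ± 0.14 and missed the threshold (adjusted p = 0.0309). The mean changes of both probe sets were -0.66 ± 0.08 and -0.67 ± 0.10 (SE, adjusted p = 1.15e-05 and 9.3e-05). By the dimmer probe set, 1422579_at, arrays with and without CHX overlapped (317.2 to 576.1 against 556.7 to 843.5). The suffix s_at marks probes that can match more than 1 transcript.

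As *Hspd1* and *Hspe1* share a promoter region and work as a pair, their ratio within each array was compared. The log2 ratio of *Hspd1* over *Hspe1* was 1.46 ± 0.24 on the 9 arrays with CHX and 1.61 ± 0.26 on the 9 without (SD), a difference of -0.14 that missed the threshold (exact permutation test within IFN treatments, two-sided, 8000 arrangements, p = 0.255, adjusted over 3 pairs 0.255).

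*Hsph1* encodes HSP110, the exchange factor that resets HSP70 after each round of folding. Its brighter probe set (1425993_a_at) had 1521, 1262 and 1381 with IFNγ and CHX, against 1739, 1779.8 and 1729 with IFNγ. It had 1084, 956.2 and 1012 with IFNα and CHX, against 1901, 1802 and 1737 with IFNα, and 1281, 1025 and 1039.5 with CHX alone, against 2303, 1968 and 1921 in mock. Arrays with and without CHX did not overlap, but the gap was narrow with IFNγ. The log2 change was -0.83 ± 0.11 with IFNα and -0.89 ± 0.11 without IFN (SE, adjusted p = 7.95e-05 and 5.62e-05), against -0.34 ± 0.11 with IFNγ, which missed the threshold (adjusted p = 0.0351). With the replicate number as a block, the fall with IFNγ passed it (adjusted p = 0.0069 in limma). The difference between the CHX effects with IFNγ and without IFN was 0.55 ± 0.15 (95% confidence interval 0.23 to 0.88) and did not pass the test over all probe sets (adjusted p = 0.189 in limma). By the second probe set, 1423566_a_at, arrays with and without CHX overlapped (409.8 to 1033 against 799.2 to 1761). Its log2 changes were -0.52, -1.03 and -1.30 with IFNγ, with IFNα and without IFN. Of these the last passed the test (adjusted p = 0.0053), a call kept in 0 of 6 fits that left out 1 array. Its mean change was -0.95 ± 0.17 (SE, adjusted p = 0.00033), a call kept in 18 of 18 such fits, beside -0.69 ± 0.06 (adjusted p = 7.18e-07) for the first.

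*Hspa8* encodes HSC70, the constitutive cytosolic HSP70. Its probe set with the highest mean, 1420623_x_at, had 10762, 8237 and 9567 with IFNγ and CHX, against 13714, 11905 and 15250 with IFNγ. It had 11730.3, 10922 and 8284 with IFNα and CHX, against 13778, 13618 and 14157 with IFNα, and 10552, 10564 and 11542 with CHX alone, against 16367, 14798 and 14745 in mock. These groups did not overlap either, yet the single comparisons missed the threshold (log2 changes of -0.52, -0.44 and -0.49, adjusted p = 0.012, 0.032 and 0.0195), and the mean of -0.48 ± 0.08 passed it (SE, adjusted p = 0.000166). With the replicate number as a block, the fall with IFNγ passed it as well (adjusted p = 0.00854 in limma). Of the other 3 probe sets, 1431182_at and 1455789_x_at also fell in the mean (-0.57 and -0.23), the second of them in only 3 of 18 fits that left out 1 array, and 1420622_a_at, at -0.27 ± 0.17, did not pass the test (adjusted p = 0.209). Arrays with and without CHX overlapped for each of these 3 probe sets. The suffix x_at marks probes that can bind other transcripts, which applies to *Hspa8* with its many processed copies in the genome. Within arrays the log2 ratio of *Hsph1* over *Hspa8* was -3.13 ± 0.32 with CHX and -2.93 ± 0.12 without (SD, 9 arrays each), a difference of -0.20 that missed the threshold (exact permutation test, p = 0.069, adjusted p = 0.104).

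**Figure D3:**
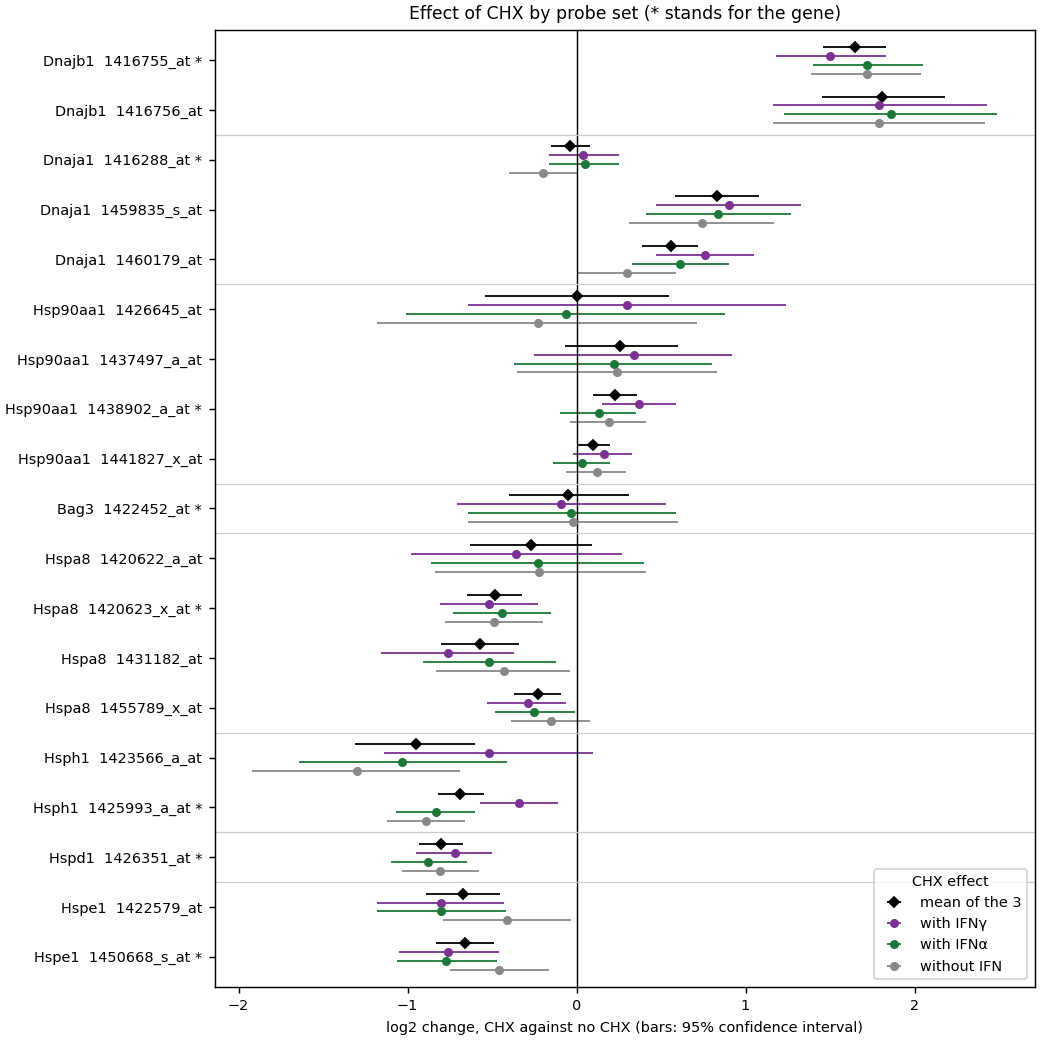
Log2 change with CHX against no CHX for the 19 member probe sets kept (rows), in the mean of the 3 comparisons (black diamonds) and with IFNγ, with IFNα and without IFN (circles), with 95% confidence intervals. Both *Dnajb1* probe sets lie between 1.50 and 1.86, whereas the 3 *Dnaja1* probe sets spread from -0.04 to 0.83 in the mean.

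*Dnaja1*, the other cytosolic J protein among the members, could not be given 1 direction because its probe sets disagreed. The brightest, 1416288_at, ranged from 2471 to 3034 with CHX and from 2424 to 3091 without it (medians 2752 and 2863), and its mean log2 change was -0.04 (95% confidence interval -0.15 to 0.08, adjusted p = 0.602). The probe set 1459835_s_at had 755.8 to 1241 with CHX and 479.5 to 742.0 without, so that the arrays did not overlap, and 1460179_at had 1556 to 2351 with CHX and 1113 to 1578 without. Both rose, by 0.83 ± 0.12 and 0.56 ± 0.08 on the log2 scale (SE, adjusted p = 4.65e-05 and 4.33e-05). Averaged over its probe sets the gene changed by 0.45 ± 0.05 (adjusted p = 1.21e-05). Which part of the transcript each probe set reads was not analysed here. By the brightest probe sets, the log2 ratio of *Dnajb1* over *Dnaja1* within arrays was 1.45 ± 0.33 with CHX and -0.24 ± 0.27 without (SD, 9 arrays each). The difference of 1.68 had the smallest p that the exact permutation test can give (p = 0.00025, adjusted over 3 pairs 0.00075). As *Dnajb1* by itself separated the arrays by CHX and this *Dnaja1* probe set was flat, the ratio adds little to the change of *Dnajb1*. The *Dnaja1* probe sets that rose were not used in a ratio.

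*Hsp90aa1* encodes the inducible cytosolic HSP90. Its brightest probe set, 1438902_a_at, had 11903, 9792 and 13541 with IFNγ and CHX, against 8640.1, 9045 and 9355 with IFNγ. It had 8812, 9664 and 9361 with IFNα and CHX, against 8042, 8823 and 8636 with IFNα, and 10675, 9955 and 10241 with CHX alone, against 8528, 9305 and 9274 in mock. Arrays with CHX were higher with IFNγ and without IFN, and overlapped those without CHX with IFNα. No single comparison passed the test, and the mean change of 0.23 ± 0.06 (SE, adjusted p = 0.0069) did. In the fits that left out 1 array its adjusted p lay between 0.000524 and 0.0162 and the log2 change between 0.19 and 0.27. The probe sets 1426645_at and 1437497_a_at gave 0.00 ± 0.25 and 0.26 ± 0.16 and did not pass the test, and 1441827_x_at, at intensities from 8.4 to 10.4, was barely above the filter.

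The probe set 1426645_at of *Hsp90aa1* varied most among replicates, with a pooled SD of 0.58 on the log2 scale within treatments, against 0.07 to 0.38 for the other 18 member probe sets. On the IFNγ arrays with CHX it had 7621, 2349 and 9243. These values followed the difference between the 5′ and 3′ control probe sets of *Gapdh*, a measure of how complete the RNA was, which ran from -1.90 to 0.26 on the log2 scale with CHX and from -1.33 to 0.35 without. Over 18 arrays Pearson's r was 0.755 and Spearman's rho 0.746 (permutation tests, p = 0.00022 and 0.0006, adjusted over 19 probe sets 0.00418 and 0.0114), r was 0.734 on the 9 arrays with CHX and 0.897 on the 9 without, and 0.727 without the 2 arrays farthest from the median. Over 18 arrays it was the only 1 of the 19 probe sets with an adjusted p under 0.05, and for the brightest *Hsp90aa1* probe set r was 0.0431. As the 18 arrays mix both CHX states, a change with CHX can hide a relation. On the 9 arrays without CHX, r was 0.927 for 1437497_a_at of *Hsp90aa1* and 0.864 for 1416756_at of *Dnajb1*. With CHX these were 0.555 and 0.542. For the remaining probe sets r without CHX lay between -0.713 and 0.574. The relations within a CHX state and the part of RNA completeness in the values of the members were not tested.

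*Bag3*, the exchange factor that links HSP70 to selective autophagy, is heat-induced in many cells. Its probe set had 985.1, 847.6 and 490.0 with IFNγ and CHX, against 874.3, 844.0 and 670.5 with IFNγ. The remaining arrays ranged from 660.2 to 1241 with CHX and from 775.3 to 1289 without. Arrays with and without CHX overlapped in every comparison, and the mean log2 change was -0.05 (95% confidence interval -0.40 to 0.31, adjusted p = 0.829).

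The IFN comparisons asked whether the members responded to the cytokines. With IFNα, none of the 8 genes passed the test, either with CHX (all genes in either direction 1.31%) or without it (0.743%), and none had an unadjusted p under 0.05 in limma. With IFNγ, none passed either in the model of the 6 treatments alone, with CHX (all genes 5.77%) or without (3.08%). By the brightest probe set of each gene, 1 was higher and 2 were lower with CHX at an unadjusted p under 0.05, and 1 was lower without. The 1 higher was *Hsph1* (log2 change 0.32 ± 0.11, adjusted p = 0.103), and the 2 lower were *Dnajb1* (-0.43 ± 0.15, adjusted p = 0.126) and *Hspe1* (-0.35 ± 0.14, adjusted p = 0.168), each as IFNγ and CHX against CHX. With the replicate number as a block, *Dnajb1* passed the test in that comparison (adjusted p = 0.00496 in limma). Without CHX the 1 lower was *Hsph1*, at -0.23 ± 0.11 (adjusted p = 0.452). Over the 19 probe sets kept, 4 were lower with IFNγ and CHX against CHX at an unadjusted p under 0.05. The further ones were 1431182_at of *Hspa8* (-0.68 ± 0.18, adjusted p = 0.0375), whose arrays did not overlap (1326 to 1747 against 2215 to 2694), and 1422579_at of *Hspe1* (-0.50 ± 0.18, adjusted p = 0.123). The comparisons of IFNγ and IFNα share their control arrays within a CHX state. The differences between the IFN responses with and without CHX passed the test for no member, with IFNα (all genes 0.297%) or IFNγ (0.363%). By the brightest probe sets, no member had an unadjusted p under 0.05 for IFNα, and for IFNγ 1 had, *Hsph1*.

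**Figure D4:**
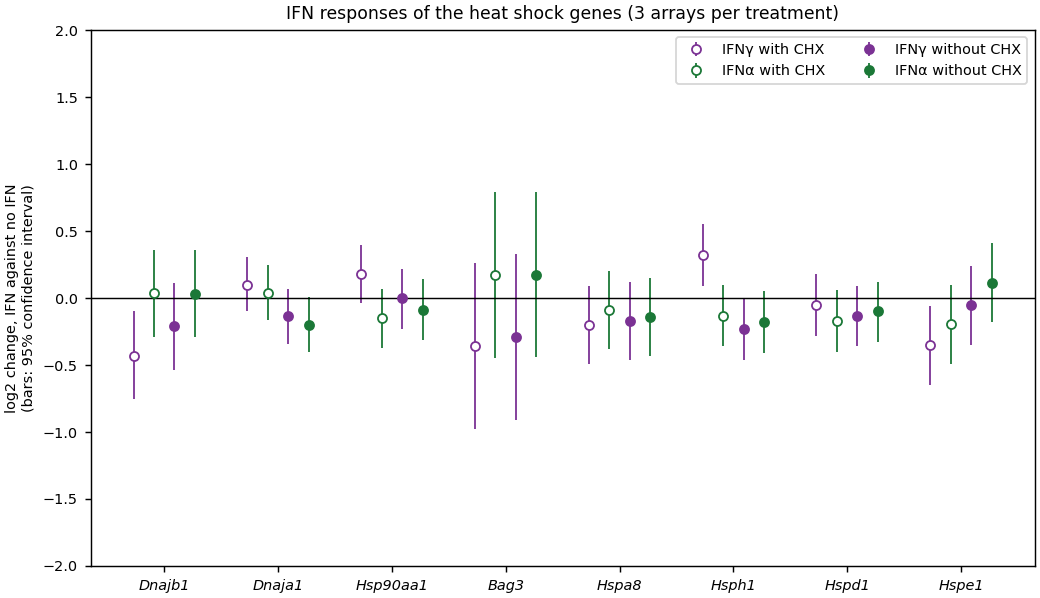
Log2 change with IFN against no IFN for the 8 measured members, with CHX (open circles) and without (filled circles), with 95% confidence intervals over 3 arrays per treatment. None passed the test in the model of the 6 treatments alone, where 0.743% to 5.77% of all genes did. By the probe set that stands for each gene, the point estimates lie between -0.43 and 0.32.

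Among the members, *Hspd1* was most like the other genes that fell. The 18 arrays share the contrast of CHX with no CHX, so that genes that fell with CHX correlate by that alone. Over these arrays the log2 values of *Hspd1* had a Pearson's r of 0.895 with *Hsph1*, 0.882 with *Hspa8* and 0.809 with *Hspe1*, and of -0.94 with *Dnajb1*. By this r, *Hsph1*, *Hspa8* and *Hspe1* ranked 368, 469 and 1036 among 12120 other genes, so that many genes outside the members were closer. Of 12120 other genes, those most like *Dnajb1* were *Rcan1*, an inhibitor of calcineurin (r = 0.994), *Gm30873* (0.989) and *Map2k3os* (0.988). *Hspd1* was most like *Tfrc*, the transferrin receptor (0.977), *Nsun2*, an RNA methyltransferase (0.974), and *Akap8* (0.972). *Hsph1* was most like *Noc3l* (0.962), *Ero1a* (0.96) and *Gclc* (0.96), *Hspe1* like *Rexo2* (0.973), *Pcsk4* (0.97) and *Mrpl43* (0.97), and *Hspa8* like *Orc1* (0.963), the chaperonin subunit *Cct5* (0.961) and *Mrpl18* (0.96). The highest values were lower for *Hsp90aa1* (*Ergic2* 0.939, *Eif4g2* 0.9, *Ptbp2* 0.892), *Bag3* (*Sh3gl1* 0.928, *Ephb3* 0.924, *Dlx2* 0.923) and *Dnaja1* (*Dld* 0.821, *Top2a* 0.82, *Itfg1* 0.786). These correlations are a description and were not tested.

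The wider chaperone system was taken from lists of 62 related genes, of which 53 were measured. With CHX, 6 of them rose and 22 fell in the mean of the 3 comparisons, where 14% of all genes rose and 22.8% fell, with a median log2 change of -0.16, against 0 over all genes. Among the 6 that rose were 3 J proteins and 2 HSP70 relatives. Of 13 other J proteins, 3 rose and 3 fell, a share of falls near that of all genes: *Dnajb2* (1.35 ± 0.15 on the log2 scale), *Dnajb5* (0.98 ± 0.18, at intensities under 100) and *Dnajb4* (0.79 ± 0.08) rose, and *Dnajc21*, a ribosome biogenesis factor, was among those that fell (-0.90 ± 0.07). Of 8 other HSP70 and HSP110 genes, 2 rose and none fell: *Hspa4l*, a relative of *Hsph1* (1.38 ± 0.12), and *Hspa1b* (0.60 ± 0.14), the stress-induced HSP70.

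*Hspa1b* is the classical target of HSF1, and its probe sets may also bind the near-identical *Hspa1a*. The one with the highest mean, 1452318_a_at, had 621.9, 962.2 and 752.6 with IFNγ and CHX, against 717.3, 750.7 and 679.5 with IFNγ. With IFNα and CHX it had 1929, 1476 and 1260.4, against 939.2, 702.0 and 609.7 with IFNα, and with CHX alone 1635, 1244 and 1493, against 1272, 929.9 and 687.5 in mock. The arrays with and without CHX overlapped with IFNγ and without IFN, and did not with IFNα. The log2 change was 0.10 ± 0.23 with IFNγ, against 1.05 ± 0.23 with IFNα, which passed the test (adjusted p = 0.00524), and 0.63 ± 0.23 without IFN, which did not (adjusted p = 0.0752). IFNγ and CHX against CHX gave -0.92 ± 0.23 (adjusted p = 0.026), and the difference between the IFNγ responses with and without CHX did not pass the test. Of its other 2 probe sets, 1427127_x_at rose in the mean CHX effect (0.57 ± 0.15, adjusted p = 0.00813) and 1427126_at, at 0.61 ± 0.20, did not pass the test (adjusted p = 0.0238).

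Among the partner genes, too, more fell than rose, as over all genes (22.8% and 14%). Of 13 HSP90 co-chaperones and partners, 7 fell, among them *Fkbp4* (-1.01 ± 0.20), *Cdc37*, which brings kinases to HSP90 (-0.92 ± 0.16), *St13* (-0.85 ± 0.07) and *Stub1*, the ubiquitin ligase of chaperone clients (-0.84 ± 0.09). The 1 that rose was *Stip1*, which joins HSP70 to HSP90 (0.60 ± 0.12), named here after its value had been seen. Of the 5 other BAG genes, 4 fell, in contrast to *Bag3*: *Bag4* (-1.33 ± 0.13), *Bag2* (-0.98 ± 0.12), *Bag5* (-0.82 ± 0.13) and *Bag1* (-0.68 ± 0.10). Of the 8 subunits of CCT, the cytosolic chaperonin that folds actin and tubulin, 5 fell, led by *Cct5* (-0.68 ± 0.09), and all 8 had a negative log2 change. The small heat shock protein *Cryab* fell (-1.18 ± 0.20), as did *Hsbp1*, a binding protein of HSF1 (-0.50 ± 0.10), and *Serpinh1*, the collagen chaperone HSP47 (-0.36 ± 0.09), a call kept in 10 of 18 fits that left out 1 array. These errors are SE, and the adjusted p of the named genes lay under 0.01 in limma. *Hsf1* had no probe set under its symbol in the annotation used.

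**Figure D5:**
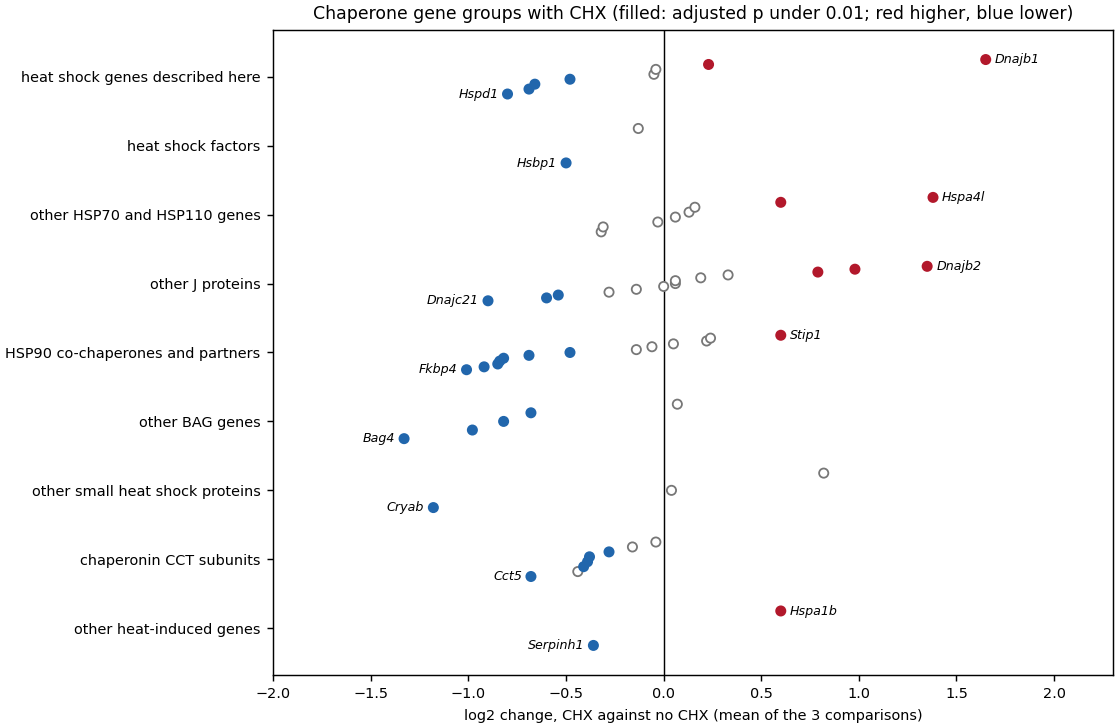
Log2 change with CHX against no CHX (mean of the 3 comparisons) for the members and 8 lists of related genes, 1 point per measured gene, filled where the adjusted p was under 0.01. *Dnajb1*, *Hspa4l* and *Dnajb2* lie farthest to the right, and *Bag4*, *Cryab* and *Fkbp4* farthest to the left. *Hspa1b* stands in both lists that hold it.

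Of the 53 related genes, 2 rose with IFNγ and CHX against CHX and 1 with IFNγ against mock, where 5.77% and 3.08% of all genes were called in either direction. *Fkbp5*, an HSP90 co-chaperone of steroid receptors, had 448.9, 540.6 and 415.5 with IFNγ, against 279.8, 251.9 and 250.5 in mock (log2 change 0.84 ± 0.13, adjusted p = 0.00147). It had 370.2, 280.6 and 286.1 with IFNγ and CHX, against 214.6, 208.4 and 175.4 with CHX (0.64 ± 0.13, adjusted p = 0.00747). The arrays did not overlap in either comparison, and with CHX the call was kept in only 1 of 6 fits that left out 1 array. *Dnajc2*, a ribosome-associated J protein, rose by 0.56 ± 0.11 with IFNγ and CHX against CHX (adjusted p = 0.00348), a call kept in 3 of 6 such fits.

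The arrays matched the labelled cell type in their markers. All 11 fibroblast markers measured exceeded 100 on every array, whereas the 5 epithelial and 4 endothelial markers and 6 of 7 leukocyte markers measured stayed under 100 on every array. Array medians ran from 9.9 to 10.8 with CHX and from 9.6 to 10.1 without. They lie near the lowest intensity kept (8.5), so that they say little about the scale of brighter probe sets.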

How the data were processed

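Newly transcribed RNA was hybridised to 18 arrays (6 treatments, 3 replicates each), grouped by the sample labels. The authors deposited 1 linear intensity per probe set and array, computed with gc-RMA according to the methods. The submitters' processing notes name Affymetrix Expression Console, with no version. Columns that belong to no sample numbered 0. Precision is limited by the number of arrays, which have no sequencing depth.

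The log2 of the deposited intensity was fitted without an added constant in a single model of the 6 treatments with limma 3.58.1 (R 4.3.3), which gave 12 residual and 2.05 prior degrees of freedom. The study's number of probe sets, 27759 (27773 with ties), was kept by the highest value on any array. For each of 10 comparisons, Benjamini-Hochberg adjustment ran over these, and a change was called at an adjusted p under 0.01. A gene was represented by its kept probe set with the highest mean. The script was tested on simulated data. Ratios within arrays were compared for 3 pairs. The planned pair of *Hsp90aa1* and *Hsp90ab1* could not be measured. Correlations and permutations used Python 3.11.15 and scipy 1.17.1. Promoter sequences are RefSeq's (GRCm38.p6).

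Named were all members, up to 4 called genes of each related list with the largest CHX effect, up to 2 in IFN comparisons, and the 3 genes most like each member. The members and lists were chosen with earlier results of these data known. Alternatives were the scale, filter, normalization, replicate block, arrays fitted, variance prior, a 2-fold rule, averaged probe sets and leaving out each array.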

Additional observations from a re-analysis of the deposited data

How the results depend on the processing

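The changes of *Dnajb1* and *Hspd1* in the mean CHX effect passed the test under every alternative run except that *Hspd1* missed the added 2-fold limit. With that limit the members called in the mean CHX effect were 1 higher and 0 lower, and 0 were lower in each single CHX comparison. In the mean effect 1 member was higher with the stricter filter and with median centring. Median centring gave 4 lower without IFN and 4 with IFNγ. With log2(value + 16), 2 were higher with IFNγ, and with averaged probe sets 2 were higher with IFNα and 2 with IFNγ. With only the arrays of the comparison, 1 was lower without IFN and 0 with IFNγ. Averaging turned *Dnaja1* to 0.45, and median centring turned the *Hsp90aa1* probe set 1426645_at to -0.06. The cause of these shifts was not tested.

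The replicate numbers were not taken as pairs in the main model, as correlations between arrays of the same number were not all positive. Arrays of the same number were still more alike on the whole, and some calls depend on this choice. The deviations of arrays with the same number had correlations from -0.401 to 0.784 (median 0.474, 45 pairs; -0.306 for different numbers), and 14 of 18 arrays correlated best with their own number. With the replicate number as a block, 4 members were lower with CHX under IFNγ, *Hspa8* (adjusted p = 0.00854) and *Hsph1* (0.0069) being added, and 1 was lower with IFNγ and CHX against CHX, *Dnajb1* (-0.43 ± 0.09, SE, adjusted p = 0.00496).

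When each array was left out in turn, members higher in the mean CHX effect numbered 1 to 2, and members higher with CHX under IFNγ 1 to 2. The difference in the ratio of *Hsph1* over *Hspa8* lay between -0.26 and -0.16. *Bag3* ranged from -0.11 to 0.05 in the mean effect and probe set 1426645_at from -0.12 to 0.21, so that neither has a direction. Of 226 counts and ratios under other settings, 210 were classed as the same. This class allows a small change of a count and asks of a ratio only its direction and its side of the threshold. Many of these counts were 0 throughout, in IFN comparisons. Members lower with CHX under IFNγ ranged from 0 to 4 and were classed as the same in 7 of 11 settings. Low intensity limits the values of *Hspb1* and of *Hsp90aa1* probe set 1441827_x_at.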
